A study of Mus musculus with 15 samples.

Results

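Bruch's membrane is the layered matrix sheet between the retinal pigment epithelium (RPE) and the choroidal capillaries, and its middle layer is built of elastic fibers. The 10 genes described here encode the elastin core of these fibers (Eln), the fibrillin and microfibril-associated scaffold around it (Fbn1, Mfap4), the fibulins that bind tropoelastin (Efemp1, Efemp2, Fbln1, Fbln5), the enzymes that cross-link it (Lox, Loxl1) and a secreted serine protease that cleaves fibulins and other matrix proteins (Htra1). They were taken by gene symbol from the count table, and all 10 were found among 40481 genes. All 10 also passed the filter on low counts, which kept 17991 genes.

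The 15 RNA-seq libraries were made from the mouse RPE with its choroid. The 7 control libraries came from Abca1/Abcg1 flox/flox LysM-Cre mice, which carry floxed alleles of both cholesterol efflux transporter genes and a Cre recombinase driven by the myeloid Lyz2 gene. The 8 INK-ATTAC libraries came from mice with the same alleles and Cre plus INK-ATTAC, an FKBP-caspase 8 fusion under the Ink4a promoter that kills p16Ink4a-expressing cells once the drug AP20187 dimerizes it. Every library of both groups is labelled as AP20187 by intraperitoneal injection, and for INK-ATTAC mice the submitters describe injections on alternate days over 3 months. The series title refers to mice with subretinal drusenoid deposits. Age is not given in the sources used here, and the labels do not tie libraries to separate animals, so that p-values cover only sample-to-sample spread, which may be technical.

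Elastic fibers form when tropoelastin, secreted by fibroblasts, smooth muscle or epithelial cells, is laid onto a scaffold of fibrillin microfibrils and cross-linked through its lysines. Fibulin-4 (Efemp2) and fibulin-5 (Fbln5) bring the lysyl oxidases Lox and Loxl1 to tropoelastin. In human eyes, variants of EFEMP1 cause a drusen-forming macular dystrophy, and the HTRA1 region is associated with age-related macular degeneration.

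Total counts ranged from 39121503 to 65065950 per library. Levels are in CPM, counts scaled by the library total over the genes kept and by a TMM normalization factor. All 12 listed RPE markers were detected, and their summed level was 66357 to 88470 CPM in controls and 73359 to 99850 CPM in the INK-ATTAC group. The fibroblast list (14 markers, 2175 to 3718 CPM in the control group and 2251 to 3671 CPM in the INK-ATTAC group) and the smooth muscle and pericyte list (12 markers, 544 to 1033 and 624.7 to 1017 CPM) were also present, with no marker of either list at 0 in every library. Lens markers reached 87.4 CPM in the control group and 615 CPM in the INK-ATTAC group, the latter in INK-ATTAC 3. All 10 lens markers tested had a positive log2 fold change of INK-ATTAC against control (median 2.84, 8 at an unadjusted p under 0.05). So did all 14 skeletal muscle markers (median 0.86, 5 at an unadjusted p under 0.05), whose summed level was 369.8 to 2867 CPM over control libraries against 798 to 4019. By edgeR's adjusted p, 0 markers of either list passed. Cdkn2a, which encodes p16Ink4a, had 0 to 2 counts per control library and 0 to 4 per INK-ATTAC library, which gives no check of the ablation. Abca1 and Abcg1 did not pass the test (log2 fold change -0.06, SE 0.12, and -0.13, SE 0.22; edgeR adjusted p = 1.00 for both).

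The fibulin genes are shown first by sequence, because their relations to the other members differed across the libraries (values below). Efemp2 and Fbln5 varied together, Fbln1 was closest to Eln and Lox, and Efemp1 went with none of them. Across these groups Fbln1 with Fbln5 (r = 0.65), Lox with Fbln5 (0.72) and Lox with Efemp2 (0.61) also had an adjusted p under 0.05 (permutation test). Fbln1 with Efemp2 and Eln with either did not. After a fit on GC content and length was removed, an analysis chosen after seeing the data, no pair across these groups passed. RefSeq promoter sequences (GRCm38.p6) were matched for 6 of the 10 members. The sequences are 200 bases ending just before the most upstream start of each gene, leaving out the 5 bases next to it, and hold no annotated exon. Capitals mark the GC box, GGGCGG on either strand, which is the binding sequence of Sp1-type factors.
Efemp1 (chr11:28853000-28853199, plus strand): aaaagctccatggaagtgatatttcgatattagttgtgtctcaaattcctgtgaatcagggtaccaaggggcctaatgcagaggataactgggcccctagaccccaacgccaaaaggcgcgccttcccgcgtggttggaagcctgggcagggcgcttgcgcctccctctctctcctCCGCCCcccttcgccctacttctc
Efemp2 (chr19:5473741-5473940, plus strand): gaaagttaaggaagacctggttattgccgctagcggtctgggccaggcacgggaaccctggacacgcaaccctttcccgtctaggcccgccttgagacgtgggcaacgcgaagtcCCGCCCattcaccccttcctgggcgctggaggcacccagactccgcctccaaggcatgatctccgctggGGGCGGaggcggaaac
Fbln1 (chr15:85205744-85205943, plus strand): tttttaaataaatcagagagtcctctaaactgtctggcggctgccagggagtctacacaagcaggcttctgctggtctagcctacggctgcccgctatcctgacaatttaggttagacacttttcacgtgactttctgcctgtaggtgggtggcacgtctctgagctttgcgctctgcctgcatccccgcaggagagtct
Fbln5 (chr12:101819125-101819324, minus strand): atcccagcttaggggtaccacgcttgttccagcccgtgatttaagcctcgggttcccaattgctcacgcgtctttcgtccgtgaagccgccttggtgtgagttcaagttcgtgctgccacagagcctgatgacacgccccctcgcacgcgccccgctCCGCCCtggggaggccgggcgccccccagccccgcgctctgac
The windows held 1 GC box in Efemp1, 2 in Efemp2, 1 in Fbln5 and 0 in Fbln1, where 30.5% of the 32851 RefSeq promoter windows of this length hold at least 1. Other motifs were searched on both strands too. None of the 4 windows held TATAAA, found in 10.1% of all windows. The E-box letters CANNTG occurred once each in Fbln1 and Fbln5 (58.5% of all windows), the SMAD letters CAGACA once in Fbln1 (13.8%), and the AP-1 letters TGANTCA once in Efemp1 (5.51%). GC content was 52.5% in Fbln1, 57% in Efemp1, 64.5% in Efemp2 and 66% in Fbln5, against a median of 53% over all windows. These matches are a description of letters and not of bound sites, and Efemp1 and Fbln5 held the same number of GC boxes. RefSeq lists further start sites for Efemp2, Fbln1 and Fbln5, whose windows are not shown. The window of the second Fbln1 start held 1 GC box at 63% GC, and that of the second Fbln5 start held 0 at 48% GC. Those of the further Efemp2 starts held 4 and 5 GC boxes at 78.5% and 83.5% GC. The contrast between Fbln1 and Fbln5 thus depends on the start chosen.

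Levels between genes were compared as FPKM, a length-corrected scale, here CPM divided by the summed exon length of the gene in kilobases. Mfap4, which encodes a fibrillin- and elastin-binding glycoprotein, was the highest at 71.7 ± 12.7 FPKM (SD, n = 15), and Eln was the lowest at 0.39 ± 0.19 FPKM (SD, n = 15). Between them, in falling order, lay Efemp1 at 36.6 ± 8.03, Efemp2 at 33.9 ± 4.95, Fbln5 at 25.7 ± 2.93, Fbln1 at 23.1 ± 8.53, Loxl1 at 21.4 ± 5.93, Htra1 at 9.54 ± 1.83, Fbn1 at 4.51 ± 0.83 and Lox at 2.42 ± 1.05 FPKM (SD, n = 15 each). The transcripts of the fibulins and Loxl1 were thus more abundant in this tissue than that of the elastin core itself.

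Mfap4 stood above Efemp1 in 15 of 15 libraries, and so did Loxl1 above Htra1, Htra1 above Fbn1, Fbn1 above Lox and Lox above Eln. Efemp2 was above Fbln5 in 14 of 15. The neighbours Efemp1 and Efemp2 differed by 2.71 ± 9.95 FPKM (SD, n = 15), Fbln5 and Fbln1 by 2.63 ± 7.09 and Fbln1 and Loxl1 by 1.66 ± 7.13, each less than the spread over libraries. With the longest coding transcript as length in place of all exons, Efemp2 was at 48.8 FPKM, above Efemp1 at 36.6, and Eln at 0.82 was still the lowest.

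**Figure D1:**
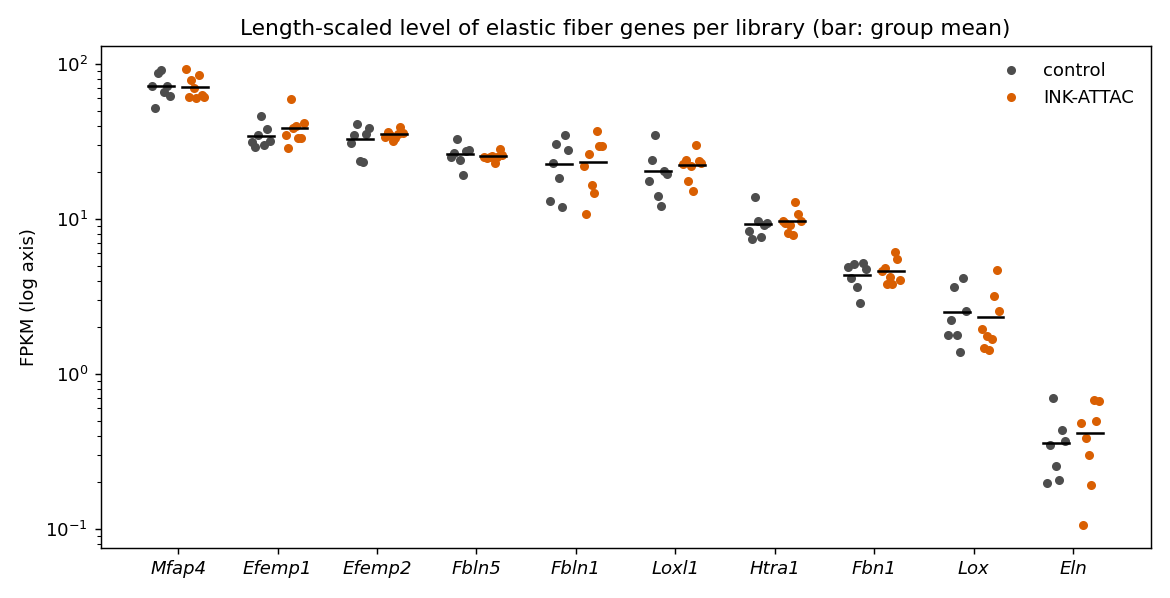
Level of each elastic fiber gene in FPKM on a log axis, with 1 point per library (grey, 7 control; orange, 8 INK-ATTAC) and a bar at each group mean. The groups overlap for every gene, and the genes span from 0.39 FPKM for Eln to 71.7 FPKM for Mfap4.

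The study's design asks whether removal of p16Ink4a-positive cells changes the tissue. In the elastic fiber genes no difference between INK-ATTAC and control libraries was found. By edgeR's quasi-likelihood test 0 of 10 members had an adjusted p under 0.05, where 0% of all genes tested did, and 0 of 10 had an unadjusted p under 0.05, where 4.14% of all genes did. The groups overlapped for all 10 members (0.0222% of all genes tested did not overlap). The log2 fold change of INK-ATTAC against control was positive for 7 members and negative for 3 (49.8% of all genes were positive), with a median of 0.06 against -0.00097 over all genes. In each sentence below, CPM is a level per library and log2 fold change a difference, and the edgeR adjusted p was 1.00 for each member.

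Among the fiber core and scaffold genes, Eln had a lowest, median and highest level of 1.61, 2.80 and 5.64 CPM in the control group and of 0.86, 3.53 and 5.48 CPM in the INK-ATTAC group. The lowest library was INK-ATTAC 2 and the highest control 3, so the groups covered nearly the same range. Its counts per library were 41 to 357, and its log2 fold change of 0.21 (SE 0.35) had a 95% interval of -0.52 to 0.95, the widest of the 10. Fbn1, the main fibrillin of adult microfibrils, ran from 35.0 through 57.4 to 63.4 CPM in the control group and from 45.9 through 53.5 to 73.8 CPM in the INK-ATTAC group (lowest, median, highest). Control 5 was the lowest library and INK-ATTAC 6 the highest, and the log2 fold change was 0.07 (SE 0.13, 95% interval -0.20 to 0.35). Mfap4 ran from 100.2 through 139 to 175 CPM in the control group and from 116 through 127 to 179 CPM in the INK-ATTAC group. The group means of Mfap4, 138 ± 26.4 (SD, n = 7) and 137 ± 24.5 CPM (SD, n = 8), were nearly equal (log2 fold change -0.01, SE 0.12, 95% interval -0.27 to 0.25).

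Fbln5, needed in mice for elastic fiber assembly, ran from 133 through 183 to 226 CPM in the control group and from 159 through 174 to 195 CPM in the INK-ATTAC group. All INK-ATTAC libraries lay inside the control range, and the log2 fold change of -0.05 (SE 0.09) had a 95% interval of -0.23 to 0.14. Efemp2, which encodes fibulin-4, ran from 88.9 through 132 to 155 CPM in the control group and from 120.2 through 134 to 149 CPM in the INK-ATTAC group (log2 fold change 0.11, SE 0.11, 95% interval -0.12 to 0.34). The coefficient of variation was 21.0% in controls and 6.59% in INK-ATTAC libraries for Efemp2, and 15.8% and 5.80% for Fbln5. The lowest controls of Efemp2 were control 5 and control 4 (88.9 and 90.05 CPM), and no INK-ATTAC library was as low. A difference in spread between the groups was not tested.

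Fbln1, a fibulin of elastic fibers and basement membranes, ran from 52.2 through 100.6 to 152 CPM in the control group and from 46.7 through 105 to 162 CPM in the INK-ATTAC group. Both groups held low and high libraries, and the log2 fold change of 0.03 (SE 0.26) had a 95% interval of -0.52 to 0.59. Efemp1, which encodes fibulin-3, ran from 59.0 through 64.7 to 93.6 CPM in the control group and from 58.1 through 74.4 to 121 CPM in the INK-ATTAC group. INK-ATTAC 3 was the highest library, followed by control 4, and all the others overlapped. The log2 fold change of Efemp1 was 0.17 (SE 0.14, 95% interval -0.12 to 0.45), and without INK-ATTAC 3 it was 0.05. That library also had the highest mean level of lens markers (4.51 log2 CPM), of corneal and conjunctival epithelium markers (4.62) and of Schwann cell markers (5.84). With lens marker level as a covariate the log2 fold change of Efemp1 was 0.0043, with fibroblast level 0.15, with skeletal muscle level 0.19 and with rod level 0.23. All 10 lens markers tested had a positive log2 fold change themselves, so lens level and group cannot be fully told apart.

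Of the cross-linking enzymes, Loxl1 ran from 39.8 through 64.4 to 115 CPM in the control group and from 50.2 through 75.5 to 98.7 CPM in the INK-ATTAC group. Control 5 was the lowest and control 3 the highest of all 15, and the log2 fold change was 0.13 (SE 0.19, 95% interval -0.27 to 0.52). Lox ran from 6.60 through 10.7 to 20.0 CPM in the control group and from 6.87 through 8.87 to 22.4 CPM in the INK-ATTAC group. Its median was lower in INK-ATTAC libraries while its highest library, INK-ATTAC 7, was of that group, and the log2 fold change was -0.10 (SE 0.28, 95% interval -0.68 to 0.48). Htra1 ran from 21.4 through 26.2 to 40.1 CPM in the control group and from 22.8 through 27.5 to 37.2 CPM in the INK-ATTAC group (log2 fold change 0.06, SE 0.13, 95% interval -0.22 to 0.33). In the annotation Htra1 lies within Fgfr2 on the other strand, without shared exon bases. With skeletal muscle marker level as a covariate, the log2 fold change was 0.12 for Lox and -0.0068 for Htra1, each on the other side of 0. Without control 3, the log2 fold change was 0.46 for Eln, 0.31 for Loxl1 and 0.18 for Htra1.

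For Fbln5 the 95% interval in linear folds was 0.855 to 1.10, for Efemp2 0.920 to 1.26 and for Mfap4 0.829 to 1.19. For Eln it was 0.696 to 1.93 and for Fbln1 0.696 to 1.503. These intervals are not adjusted for the number of genes tested. By the authors' deposited comparison table, the members with an adjusted p under 0.05 numbered 0 of 10 (0.0208% of its genes) and those with an unadjusted p under 0.05 also 0 of 10 (6.42% of its genes), and the member of lowest adjusted p was Efemp1, with a log2 fold change of 0.19, confidence limits of -0.06 and 0.44 and an adjusted p of 0.814. The authors' deposited table gave Fbln1 at -0.07, Fbn1 at 0.0052 and Lox at -0.22. A smaller cell number and less RNA per cell cannot be told apart in this bulk tissue.

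**Figure D2:**
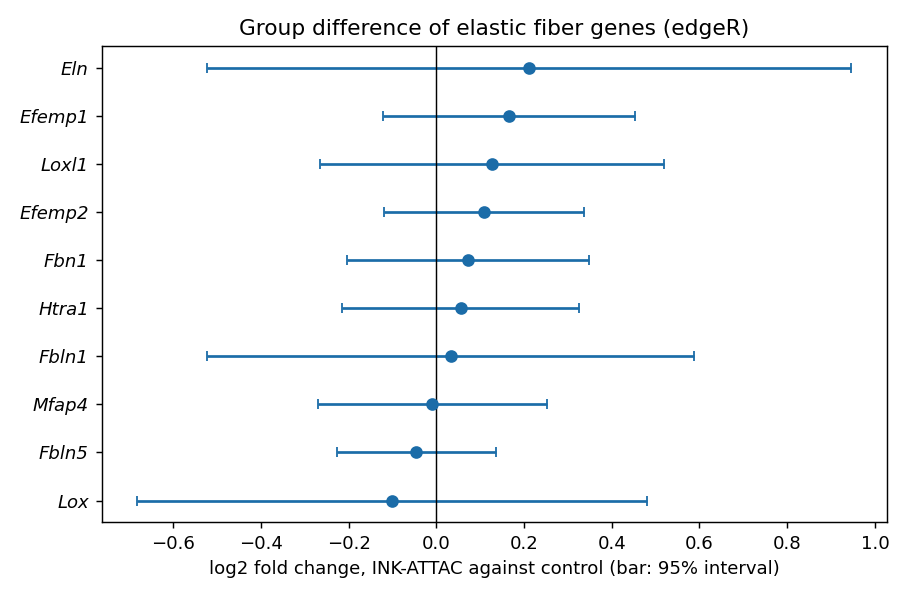
Log2 fold change of INK-ATTAC (n = 8) against control (n = 7) for each elastic fiber gene from edgeR, with bars for the 95% interval. Every interval includes 0, and the narrowest is that of Fbln5 (-0.23 to 0.14).

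The wider elastic fiber pathway was described with 5 lists holding 76 genes other than the members, of which 73 were tested. Of these, 0 passed in either direction, and 33 had a positive and 40 a negative log2 fold change (median -0.02). Where 4.14% of all genes tested had an unadjusted p under 0.05 by edgeR, 2 of the 73 had one, both lower. They were Timp3, the metalloproteinase inhibitor deposited in Bruch's membrane, with a control mean of 3974 ± 296 CPM (SD, n = 7) against 3521 ± 352 CPM (SD, n = 8), and Loxl4, a lysyl oxidase relative, at 11.8 ± 1.35 and 9.77 ± 1.74 CPM. Their log2 fold changes were -0.17 (SE 0.07, edgeR adjusted p = 1.00) and -0.28 (SE 0.11, edgeR adjusted p = 1.00).

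In the list of other microfibril and elastin-interface genes 8 of 17 were positive. Its members of lowest p were Mfap2, a microfibril glycoprotein (log2 fold change 0.25, SE 0.14), and Mfap1a (-0.11, SE 0.07), a splicing factor despite its name. Of latent TGF-beta binding and ADAMTS-like genes 8 of 15 were positive, with Ltbp1, which holds latent TGF-beta in the matrix, at 0.45 (SE 0.32) and Adamtsl4 at -0.11 (SE 0.13). Of cross-linking genes and their cofactors 4 of 11 were positive, and the copper transporter gene Atp7a, which supplies lysyl oxidases, stood at -0.10 (SE 0.09). Of elastases, HtrA proteases and inhibitors 9 of 17 were positive, with Htra3 at 0.31 (SE 0.21). Of receptors that bind elastin or fibrillin 4 of 13 were positive, with the integrin genes Itgb8 at -0.18 (SE 0.11) and Itgb1 at -0.11 (SE 0.07).

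Libraries of the same group differed from each other in these genes. Between the lowest and the highest library of a group, Eln varied 3.50-fold in controls and 6.35-fold in INK-ATTAC libraries, Fbln1 2.91-fold and 3.48-fold, and Lox 3.03-fold and 3.27-fold. Loxl1 varied 2.90-fold in controls and 1.97-fold in INK-ATTAC libraries, Efemp2 1.75-fold and 1.24-fold, and Fbln5 1.70-fold and 1.23-fold. The biological coefficient of variation that edgeR assigned was 0.47 for Eln, above 90.1% of all genes tested, 0.37 for Lox and 0.36 for Fbln1, and 0.13 for Fbln5, above 20.4% of all genes. In control 5, 0 of the 10 members were above their own mean over libraries. In control 3 it was 9 of 10, and in control 6 and INK-ATTAC 6, 7 and 8 it was 8 of 10 each, so high and low libraries occurred in both groups.

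Most members varied together. Over the 45 pairs of members the median Pearson r of log2 CPM across 15 libraries was 0.55, 38 pairs were positive, and 17 had an adjusted p under 0.05 (permutation test with 100000 resamples, two-sided, Benjamini-Hochberg over 45 pairs). Over all pairs of genes tested, the median r was 0.00 with quartiles of -0.24 and 0.24. The share of all pairs that would pass the same threshold was not computed. Within controls alone the median over member pairs was 0.70 (n = 7 libraries, 42 pairs positive), and within INK-ATTAC libraries alone 0.40 (n = 8 libraries, 37 pairs positive). The number of pairs past the threshold was 6 without control 5 and 27 without INK-ATTAC 2, so single libraries moved it by more than 1.5 times.

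Eln and Fbln1 were the closest pair. Their Pearson r was 0.91 and Spearman's rho 0.90 (permutation p = 1e-05 for both, the smallest that 100000 resamples can give, adjusted p = 4.5e-04 for both). The r was 0.89 in controls and 0.95 in INK-ATTAC libraries, and 0.88 without INK-ATTAC 2 and INK-ATTAC 5, the libraries farthest from the Eln median. Fbln1 and Lox followed at r = 0.84 and rho = 0.87 (permutation test, adjusted p = 0.00337 and 0.00135), with 0.94 in controls, 0.77 in INK-ATTAC libraries and 0.797 without control 5 and INK-ATTAC 2, the farthest from the Fbln1 median.

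Efemp2 and Fbln5, the fibulins that carry lysyl oxidases to tropoelastin, had r = 0.80 and rho = 0.71 (permutation test, adjusted p = 0.0036 and 0.031). Within controls r was 0.90, within INK-ATTAC libraries 0.64, and without control 4 and control 5 it was 0.75. Fbln5 and Loxl1, whose proteins bind each other, had r = 0.77 (permutation test, adjusted p = 0.00688) and rho = 0.56 (adjusted p = 0.069). This pair leaned on few libraries: r was 0.92 in controls, 0.49 in INK-ATTAC libraries and 0.42 without control 3 and control 5.

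Efemp1 and Mfap4 stood outside this pattern. The r of Efemp1 with the 9 other members ranged from -0.29 to 0.37 with a median of -0.07, and 0 of its pairs passed. Its median was 0.12 in controls (7 of 9 pairs positive) and -0.22 in INK-ATTAC libraries (3 of 9). Without the 2 libraries farthest from the median of the first gene of each pair it was 0.16 (8 of 9), so its sign leaned on few libraries. Efemp1 with Mfap4 had r = 0.79 in controls and 0.12 in INK-ATTAC libraries. Mfap4 ranged from -0.18 to 0.54 with a median of 0.18, and 0 of its pairs passed. The other 8 members each had a median r of 0.55 to 0.67. Whether Efemp1 differs from the others in this respect was not tested beyond these values.

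**Figure D3:**
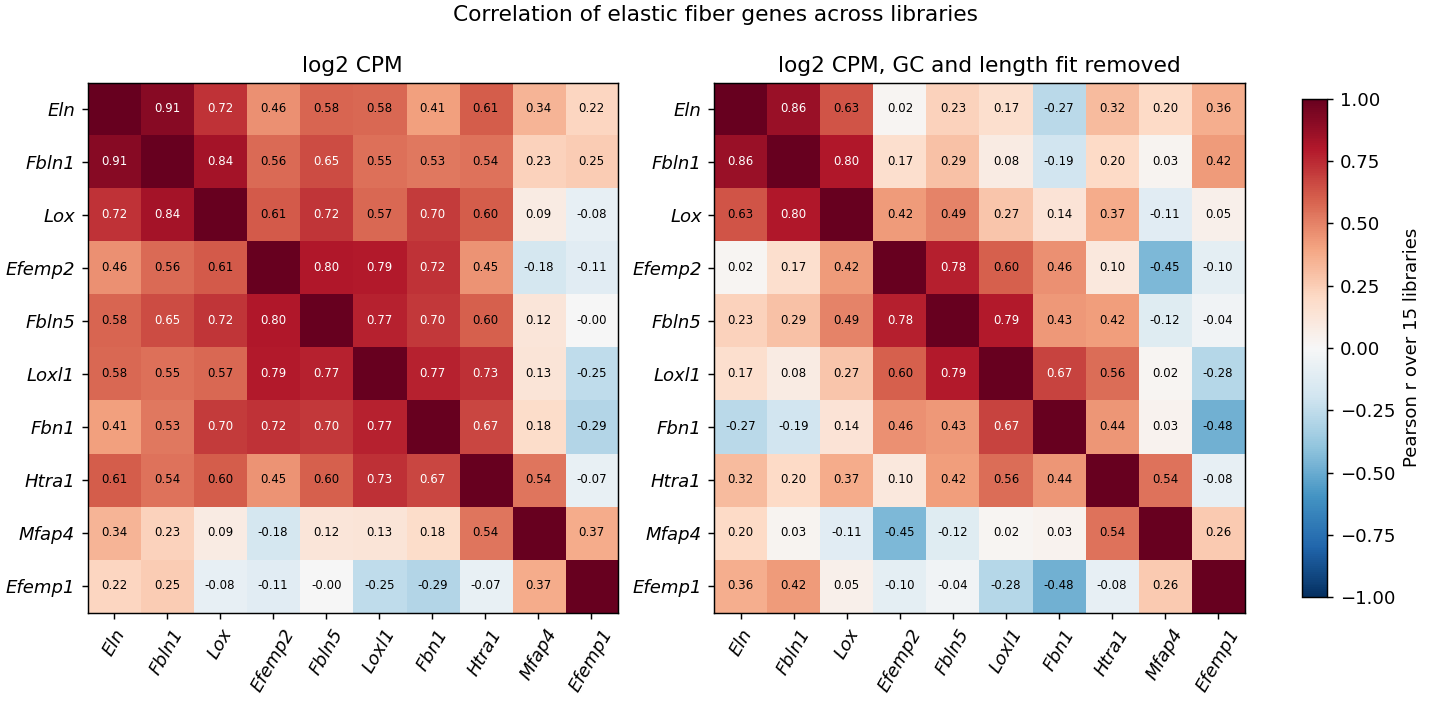
Pearson r of log2 CPM over 15 libraries for each pair of elastic fiber genes (left), and the same after each library's linear fit on GC content and length was removed (right). On the left most pairs outside Efemp1 and Mfap4 are positive (median of all 45 pairs 0.55), and on the right the median is 0.23, with the highest values for Eln and Fbln1 (0.86) and Fbln1 and Lox (0.80).

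A measure fitted on the same counts, the GC slope of each library, moved with this pattern. Whether the slope is technical in origin was not tested. For each library, the deviation of every gene from its mean was fitted on the GC content and length of its longest transcript, which 17983 of the 17991 genes had in the annotation. The slope ranged from -0.31 log2 per 10% GC in control 5 to 0.19 in control 3, so GC-rich transcripts were counted relatively more in some libraries than in others. Across the 15 libraries, r with this slope was 0.65 to 0.86 for 8 of the 10 members (permutation test, highest adjusted p = 0.0112 over 10 relations), among them 0.86 for Fbln1 and Efemp2 and 0.79 for Eln. The share of all genes tested that follow the slope this closely was not computed, so the count cannot be read as particular to the members. Spearman's rho was 0.88 for Fbln1, 0.87 for Efemp2 and 0.86 for Eln (permutation test, highest adjusted p = 3.7e-04 of these 3). The r was also positive within controls (0.90, 0.95 and 0.90 in that order) and INK-ATTAC libraries (0.89, 0.61 and 0.82). Without control 4 and control 5, the libraries farthest from the median slope, it was 0.89, 0.76 and 0.85. Both lie at the low end, and control 3 at the high end was kept. For Efemp1 r was -0.04 and for Mfap4 0.06.

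The members' own GC content did not order them in this way. Lox, with 43.9% GC, had r = 0.82 with the slope, and Mfap4, with 53.6%, had 0.06. Loxl1 at 61.0% and Eln at 58.8% were GC-rich, above 97.7% and 93.7% of genes tested, and the median gene had 49.7%.

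With the fit on GC content and length removed, an analysis chosen after seeing the data, the median r of the 45 pairs fell to 0.23 and 4 pairs passed. These were Eln with Fbln1 (r = 0.86, permutation test adjusted p = 0.00135), Fbln1 with Lox (0.80, adjusted p = 0.00832), Fbln5 with Loxl1 (0.79, adjusted p = 0.0027) and Efemp2 with Fbln5 (0.78, adjusted p = 0.00832). Values of 0.63 for Eln with Lox (adjusted p = 0.0871) and 0.598 for Efemp2 with Loxl1 (adjusted p = 0.105) missed the threshold. Pairs of Eln, Fbln1 or Lox with Efemp2, Fbln5 or Loxl1 had values between 0.02 (Eln with Efemp2) and 0.49 (Lox with Fbln5), and none of them passed. With the slope as a covariate in the group comparison 0 members passed, and 2 genes passed in all, Gm6472 and Acp1, named here only because that fit called them.

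**Figure D4:**
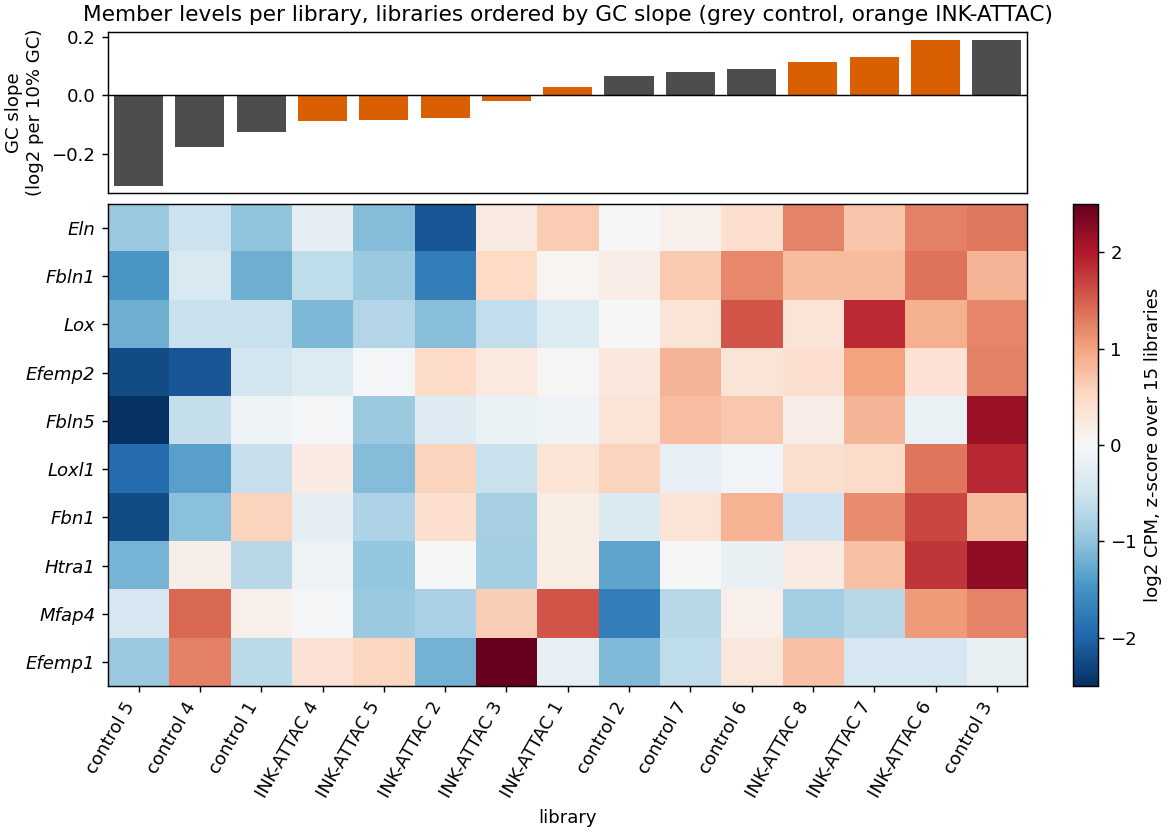
Top, GC slope of each library in log2 per 10% GC (grey, control; orange, INK-ATTAC), in rising order. Bottom, log2 CPM of each elastic fiber gene as a z-score over the 15 libraries; the upper 8 genes turn mostly from blue to red from control 5 to control 3, while Mfap4 and Efemp1 do not follow the order.

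Markers of cell types that produce elastic fibers were set beside the members, as 40 relations of 10 members with 4 marker lists. Of these, 10 had an adjusted p under 0.05, and 6 without control 1, 6 without control 5 and 5 without INK-ATTAC 7. Genes other than the members were not set against these lists, so the counts cannot be read as particular to the members. Fbln1 followed smooth muscle and pericyte markers with r = 0.89 and rho = 0.88 (permutation test, adjusted p = 4e-04 and 0.001), with 0.91 in controls, 0.87 in INK-ATTAC libraries and 0.797 without control 5 and INK-ATTAC 2. Lox followed them with r = 0.87 and rho = 0.89 (permutation test, adjusted p = 4e-04 and 0.001), with 0.95 in controls, 0.83 in INK-ATTAC libraries and 0.89 without these libraries. Eln did so with r = 0.76 and rho = 0.75 (permutation test, adjusted p = 0.00896 and 0.0194), and with 0.595 without them. Fbln5 and Efemp2 also passed with smooth muscle and pericyte markers, at r = 0.70 and 0.65 (permutation test, adjusted p = 0.0274 and 0.0393). Their rho was 0.74 and 0.70 (permutation test, adjusted p = 0.0198 and 0.0283). Eln passed with endothelial markers by r (0.67, permutation test adjusted p = 0.0347) but not by rho (0.57, adjusted p = 0.122). Fbln1 and Lox also followed endothelial markers, with r = 0.86 and 0.81 (permutation test, adjusted p = 5.3e-04 and 0.0033). Their rho was 0.78 and 0.72 (permutation test, adjusted p = 0.0135 and 0.022), and r without control 6 and INK-ATTAC 2 was 0.796 and 0.74.

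After removal of the GC and length fit, Fbln1 still passed with smooth muscle markers (r = 0.81, permutation test adjusted p = 0.0042) and with endothelial markers (0.78, adjusted p = 0.0059). So did Lox with both lists (0.83, adjusted p = 0.0042, and 0.72, adjusted p = 0.0222). Smooth muscle markers no longer passed with Eln (0.61, adjusted p = 0.0904), Fbln5 (0.31, adjusted p = 0.446) or Efemp2 (0.36, adjusted p = 0.382). Nor did endothelial markers with Eln (0.51, adjusted p = 0.18). Fbln1 ran against RPE markers with r = -0.63 (permutation test, adjusted p = 0.0456) and rho = -0.47 (adjusted p = 0.201), and with r = -0.79 after removal of the fit (adjusted p = 0.0059). Without control 1 and INK-ATTAC 2, r was -0.32, so the relation rests on those libraries. In the group comparison 6 of 12 smooth muscle and pericyte markers and 5 of 13 endothelial markers were positive, and 0 passed. The part of vessel content in the members' levels was not tested.

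With fibroblast markers, Mfap4 was the 1 member to pass over all 15 libraries, with r = 0.66 and rho = 0.51 (permutation test, adjusted p = 0.0347 and 0.176), 0.74 in controls and 0.62 in INK-ATTAC libraries. It was 0.46 without control 2 and INK-ATTAC 5, on which it thus leans, and 0.60 after removal of the GC and length fit (permutation test, adjusted p = 0.0904). Eln had r = 0.54 and rho = 0.50 with these markers (permutation test, adjusted p = 0.104 and 0.184), with -0.16 in controls, 0.92 in INK-ATTAC libraries and 0.62 without the same libraries. Fbln1 had r = 0.44 and rho = 0.49 (permutation test, adjusted p = 0.202 and 0.184), with -0.06 in controls, 0.83 in INK-ATTAC libraries and 0.53 without them, so that within INK-ATTAC libraries and without these 2 both had a higher r than Mfap4. Efemp1 passed with none of the 4 lists (lowest adjusted p = 0.196, with RPE markers at r = -0.46 and rho = -0.42).

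**Figure D5:**
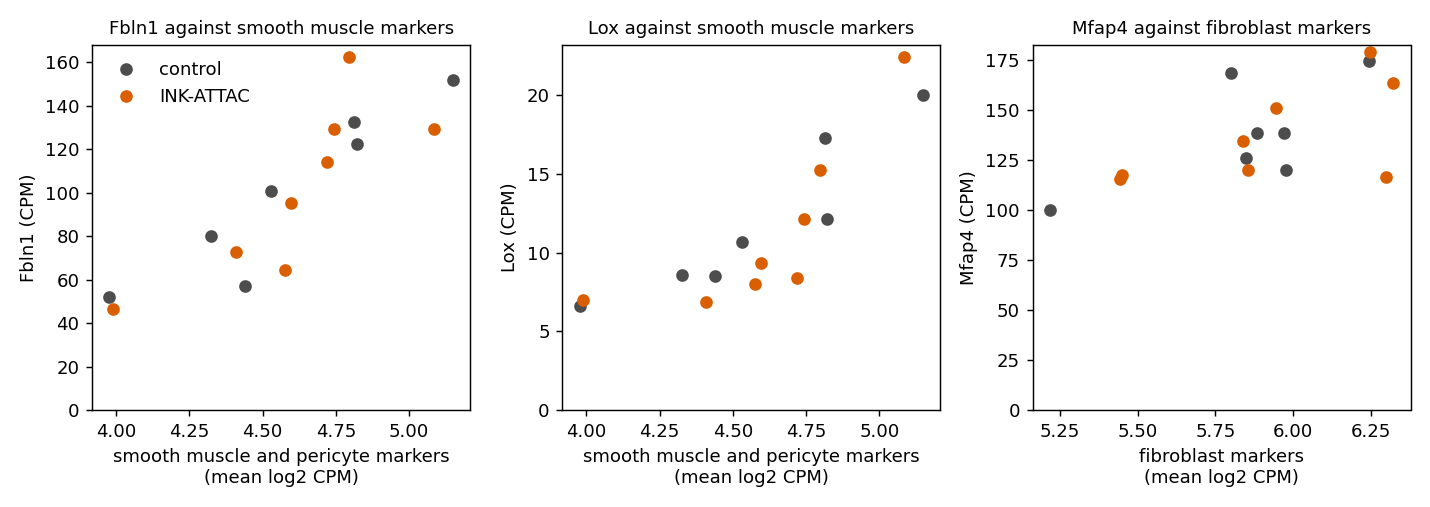
CPM of Fbln1 and Lox against the mean log2 CPM of smooth muscle and pericyte markers, and of Mfap4 against that of fibroblast markers, with 1 point per library (grey, 7 control; orange, 8 INK-ATTAC). Fbln1 and Lox rise along the smooth muscle markers in both groups (r = 0.89 and 0.87 on the log2 scale), and Mfap4 is more scattered (r = 0.66).

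Among the 12883 genes whose log2 CPM averaged 1 or more, those with the highest mean r with the members across 15 libraries were Gas6 (0.66), Tmem150a, Bpifb1, Col6a2 and Rcn3 (0.64 each). Gas6 encodes a ligand of the TAM receptors that RPE cells use in phagocytosis, and Col6a2 a chain of the microfibrillar collagen VI. Nearest to Fbln1 were Mrc2, a collagen uptake receptor, and Lmna (r = 0.97 for both), and nearest to Eln were S1pr2 (0.94) and Colgalt1, which glycosylates collagen (0.93). Nearest to Lox were Slc6a8 (0.97) and Ttc28 (0.96), to Efemp1 Enpp3 (0.85) and the epithelial transcription factor Elf3 (0.84), and to Mfap4 C1qtnf2 and Cobl (0.85 for both). These values describe 15 libraries that share the GC pattern above.

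The positions are those of GENCODE M21 on GRCm38. Eln lies on chromosome 5 from 134702593 to 134747323, Efemp1 on chromosome 11 from 28853204 to 28926743 and Efemp2 on chromosome 19 from 5473954 to 5482517. Fbln1 lies on chromosome 15 from 85205949 to 85286535, Fbln5 on chromosome 12 from 101746565 to 101819055 and Fbn1 on chromosome 2 from 125300594 to 125507993. Lox lies on chromosome 18 from 52516067 to 52529867, Loxl1 on chromosome 9 from 58287738 to 58313186, Htra1 on chromosome 7 from 130936111 to 130985660 and Mfap4 on chromosome 11 from 61485431 to 61488900. Exons of genes on the other strand overlap those of Fbn1 (Gm9913, 2442 bases), Eln (Gm30003, 267 bases), Efemp2 (Mus81, 173 bases), Mfap4 (Mapk7, 89 bases) and Lox (30 bases), and without a stated strand setting such reads cannot be told apart.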

How the data were processed

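RNA was collected in TRIzol, purified on NucleoSpin columns and amplified as cDNA with SMARTer chemistry, per the labels' protocols. The submitters' processing notes name bcl2fastq, DRAGEN, edgeR, limma and GRCm38; for versions, counting settings and strand the sources used here give nothing. The authors deposited raw read counts per Ensembl gene (40757 entries; 276 identical repeats were collapsed). They also deposited a comparison table with, per the file headers, log2 fold changes and log2 CPM, p-values, and moderated t and log odds scores that were not used.

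In edgeR 4.0.16 under R 4.3.3, counts were TMM-scaled, filtered with filterByExpr and tested by the two-sided quasi-likelihood test without covariates, adjusted over 17991 genes at 0.05; SE is the log2 fold change over the root of F. No pair of replicates agreed within sampling noise. Correlations used log2 CPM with a prior count of 2. Named genes were the members, the 2 of lowest p in each pathway list, in which none passed, those of highest r, and Cdkn2a, Abca1 and Abcg1. Members, lists and tests were chosen with earlier results of these data known. Alternatives were DESeq2 1.42.0, limma 3.58.1, other scaling, filters, covariates, blocks and single libraries left out. The tests were tested on simulated data.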

Additional observations from a re-analysis of the deposited data

Results flagged for a closer look

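Among 20 groups of member values examined, 2 held a library far from the others of its group, where chance gives about 1 in 20. Efemp1 was at 121 CPM in INK-ATTAC 3, against 84.5 CPM in the nearest library of that group, INK-ATTAC 8. INK-ATTAC 3 was also the library with the highest mean lens, corneal and Schwann cell marker levels. The log2 fold change of Efemp1 was 0.17 in the main fit, 0.0043 with lens level as a covariate and 0.23 with rod level. All 10 lens markers tested had a positive log2 fold change, so lens level and group cannot be fully told apart. Htra1 was at 40.1 CPM in control 3, against 27.8 CPM in the nearest control, control 4. Control 3 had the highest GC slope of all libraries, 0.19 log2 per 10% GC, and the highest Eln, Efemp2, Fbln5 and Loxl1 levels among all 15. Without control 3 the log2 fold change of Htra1 was 0.18, against 0.06 with it.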

How the results depend on the processing

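Under all 29 alternatives to the group comparison 0 members passed, and 0 members reached an unadjusted p under 0.05. Over all genes, 0 passed in the edgeR fit (745 at an unadjusted p under 0.05), 8 with DESeq2, 2 with limma-voom with sample quality weights (Gm6472 and Ptgs2, named because that fit called them) and 2 with the GC slope as a covariate, which was chosen after seeing the data. Leaving out each library in turn gave 0 genes each time. Efemp1, Efemp2 and Loxl1 kept a positive log2 fold change throughout (0.0043 to 0.25, 0.03 to 0.19 and 0.02 to 0.31), the lowest Efemp1 value with lens level as a covariate.

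The other 7 members changed sign somewhere, and the cause was not tested. With fibroblast level as a covariate Eln was -0.052 and Fbln1 -0.10. With the GC slope Eln was -0.0077, Fbln1 -0.14 and Htra1 -0.0054. With skeletal muscle level Lox was 0.12 and Htra1 -0.0068, and with rod level Mfap4 was 0.049. With sample quality weights Fbln1 was -0.066 and Mfap4 0.080. Leaving out single libraries gave ranges of 0.075 to 0.46 for Eln, -0.10 to 0.16 for Fbln1, -0.12 to 0.016 for Fbln5, -0.015 to 0.12 for Fbn1, -0.32 to 0.070 for Lox, -0.015 to 0.18 for Htra1 and -0.086 to 0.055 for Mfap4.

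Numbers in the titles did not settle whether the libraries are paired. Same-numbered deviations correlated at -0.10 to 0.29, and 4 of 7 pairs were over 0.1 (2 of 7 with the numbers in the descriptions). For INK-ATTAC 1, 5, 6 and 7 the same-numbered control had the highest r of all controls. The match was best in both directions for 1 of 7 pairs by title and 0 of 7 by description. A chance level for these counts was not computed. With a replicate block by title number 0 genes and 0 members passed, Fbln1 was -0.031 and Mfap4 0.025, and by description number 0 genes and 0 members passed.

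Of the 45 member pairs, 17 passed with Pearson's r and 13 with Spearman's rho, 1 in controls alone and 3 in INK-ATTAC libraries alone, where fewer libraries remain, and 4 without the GC and length fit. Leaving out single libraries gave 6 to 27. Of the 40 relations with marker lists 10 passed, 8 with Spearman's rho, 3 in controls alone, 0 in INK-ATTAC libraries alone, 5 without the GC and length fit, and 5 to 12 without single libraries.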
